A study of Mus musculus with 6 samples.

Results

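The bone morphogenetic protein (BMP) group described here holds 10 genes, namely the ligands Bmp2, Bmp4, Bmp6 and Bmp7, the receptors Bmpr1a, Bmpr1b and Bmpr2, and the antagonists Grem1, Nog and Chrd. The genes were taken by name from the 22380 protein-coding genes of the annotation. DNA methylation at each gene was read from MeDIP-seq peaks, places where sequenced DNA fragments pulled down by an antibody against methylated cytosine pile up. A peak was assigned to a gene when its summit lay in the gene or within 10 kb on either side, and peaks of different samples that shared at least 1 bp were joined into a region. The windows of the 10 genes held 85 of the 170444 regions of the genome.

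The cells were mouse primary mesangial cells, the contractile cells that hold the capillary loops of the kidney glomerulus together. The control group comprised 3 samples, and the TGF-β1 group comprised 3 samples exposed to TGF-β1 at 10 ng/ml for 72 h. Both groups were grown in high glucose (25.5 mM) with 20% foetal bovine serum and were used at passages 3 to 6, so that no sample at low glucose was compared. The study calls the samples of a group biological replicates, while the labels do not say whether they came from separate cultures or animals, and p-values here measure the spread between these samples, which may be technical. No RNA was measured in these 6 libraries, so the identity of the cells could not be checked from marker expression.

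BMPs are secreted ligands of the TGF-β superfamily. They bind a pair of type I receptors and a pair of type II receptors at the cell surface, and the activated type I receptor phosphorylates Smad1, Smad5 and Smad9, which enter the nucleus with Smad4. Antagonists such as gremlin, noggin and chordin bind the ligands outside the cell and keep them from their receptors. In the kidney, BMP7 is needed for nephron formation and is known as a counterpart of TGF-β1 in fibrosis, and gremlin is known to be raised in diabetic kidney disease. Methylation of a CpG island at a gene start usually goes with a silent promoter, while methylation in gene bodies is common in active genes as well.

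The number of reads behind the calls differed between the groups. In control replicates 1 to 3, peaks rested on 10319496, 9407103 and 11494356 reads. The TGF-β1 replicates 1 to 3 had 12748318, 12634300 and 13291419. Every TGF-β1 sample was deeper than every control sample, so that in any number of peaks treatment and depth cannot be told apart. A sample without a peak at a place did not pass the threshold there, which does not show that the DNA was unmethylated.

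A pair of libraries stood apart in base composition. Peaks with a GC content of at least 55% made up 1.97% of the peaks of control replicate 1, 7.64% of control replicate 2 and 10.1% of control replicate 3. The shares were 6.01%, 8.68% and 3.74% in TGF-β1 replicates 1, 2 and 3. Control replicate 1 and TGF-β1 replicate 3 thus had the lowest share of their groups. At the 10 genes the gap showed in control replicate 1: of the 33 regions with a GC content of at least 50% it had a peak in 5, against 13 and 15 in the other controls and 14, 15 and 15 in the TGF-β1 samples. Of the 52 regions under 50% GC it had a peak in 29, against 25 and 29 in the other controls and 31, 28 and 31 in the TGF-β1 samples. At 50% GC or more its share was 15.2% at the 10 genes and 37.4% of all such regions of the genome. Over the genome the other controls had peaks in 52.5% and 63.1% of such regions, and the TGF-β1 samples in 57.2%, 59.9% and 55.1%. Under 50% GC the genome-wide shares were 52.5%, 52.7% and 56.3% in the controls and 60.3%, 57.8% and 64.8% in the TGF-β1 samples.

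**Figure D1:**
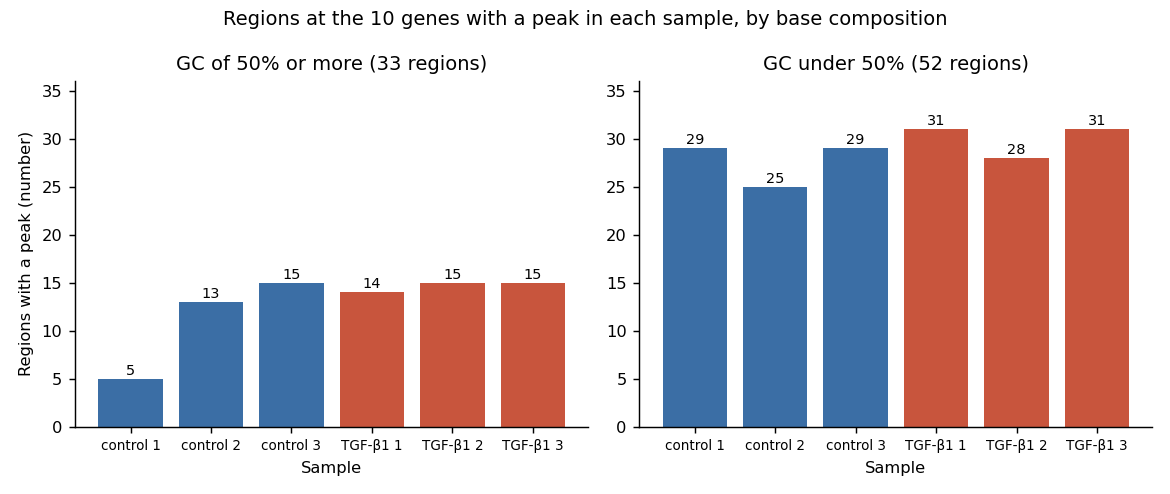
Bars give the number of regions at the 10 genes that had a peak in each sample (vertical axis, number of regions), for regions of at least 50% GC on the left and under 50% GC on the right, with control samples in blue and TGF-β1 samples in red. Control replicate 1 called 5 of the 33 GC-rich regions, fewer than any other sample, and 29 of the 52 others. Over the whole genome it called 37.4% of the regions of at least 50% GC and 52.5% of those under 50% GC.

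The sequences of 8 stretches that carry the observations below were read from the mm9 reference, plus strand, 5′ to 3′. Each spans up to 100 bases on either side of the highest summit of its region, less any untranslated part of a protein-coding transcript, and capitals mark CpG dinucleotides, the sites at which mammalian DNA is methylated. Those of Bmp2, Bmp4, Bmpr2 and Nog are shown because they hold the Bmp2 promoter region and the regions with the highest pileup of their genes.
Bmp2 promoter, chr2:133376649-133376849: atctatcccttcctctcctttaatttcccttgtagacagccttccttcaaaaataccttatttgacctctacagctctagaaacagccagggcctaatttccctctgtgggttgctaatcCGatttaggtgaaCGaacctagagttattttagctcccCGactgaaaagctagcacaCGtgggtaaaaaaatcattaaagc
Bmp4 coding exon 4, chr14:47003688-47003888: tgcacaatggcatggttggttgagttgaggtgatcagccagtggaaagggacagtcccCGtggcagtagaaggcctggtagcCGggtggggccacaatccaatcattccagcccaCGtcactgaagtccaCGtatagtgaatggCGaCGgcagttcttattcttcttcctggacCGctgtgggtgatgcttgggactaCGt
Bmpr2 intron 3, chr1:59893469-59893669: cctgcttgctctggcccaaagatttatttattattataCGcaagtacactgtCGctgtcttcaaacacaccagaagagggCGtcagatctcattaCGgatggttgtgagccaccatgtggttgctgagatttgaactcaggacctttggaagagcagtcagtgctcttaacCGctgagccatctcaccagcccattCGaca
Nog downstream, chr11:89157874-89158074: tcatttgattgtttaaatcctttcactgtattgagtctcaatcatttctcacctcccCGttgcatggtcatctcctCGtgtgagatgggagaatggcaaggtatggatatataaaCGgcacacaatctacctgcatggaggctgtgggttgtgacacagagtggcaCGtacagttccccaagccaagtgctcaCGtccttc

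These 4 stretches hold 4, 8, 6 and 5 CpGs. The next pair is shown for the regions over coding exons of antagonists, each called in more samples of 1 group than of the other, and holds 4 CpGs at Grem1 and 8 at Chrd.
Grem1 coding exon 2, chr2:113589760-113589889: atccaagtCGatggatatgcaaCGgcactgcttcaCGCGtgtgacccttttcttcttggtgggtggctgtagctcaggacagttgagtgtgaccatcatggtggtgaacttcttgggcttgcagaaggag
Chrd exon 5, chr16:20734585-20734684: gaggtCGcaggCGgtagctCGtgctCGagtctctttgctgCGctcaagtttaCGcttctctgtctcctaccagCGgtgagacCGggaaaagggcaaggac

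The last pair is shown because peaks were called over sequence almost without CpGs. The Bmp6 stretch has no capitals, and the Grem1 stretch has 1 CpG at the junction of 2 repeats.
Bmp6 upstream, chr13:38430107-38430307: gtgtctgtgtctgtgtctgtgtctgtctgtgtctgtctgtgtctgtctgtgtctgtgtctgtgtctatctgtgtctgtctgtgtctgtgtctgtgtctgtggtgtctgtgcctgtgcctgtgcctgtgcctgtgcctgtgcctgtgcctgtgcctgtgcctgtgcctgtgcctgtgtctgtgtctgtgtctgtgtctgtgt
Grem1 upstream, chr2:113601206-113601406: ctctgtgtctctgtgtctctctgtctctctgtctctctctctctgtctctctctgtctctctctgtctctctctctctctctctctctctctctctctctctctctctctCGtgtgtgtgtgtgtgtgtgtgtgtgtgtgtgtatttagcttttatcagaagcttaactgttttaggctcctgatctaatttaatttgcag

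Over the whole of its 497 bp, the upstream region of Bmp6 (chr13:38430041-38430537) held 0 CpGs and an exact tandem run, of a unit of 1 to 6 bases, of 78 bp. It nevertheless had a pileup (extended reads counted at the summit) of 13 and 13 in control replicates 1 and 2 and of 17 and 16 in TGF-β1 replicates 1 and 3. The upstream region of Grem1 (chr2:113601082-113601512) held 1 CpG and a run of 46 bp, with pileups of 10 and 12 in control replicates 2 and 3. A region in intron 20 of Chrd (chr16:20740722-20741035) also held 1 CpG, beside a run of 36 bp, with a pileup of 12 in control replicate 3 and a pileup of 9 in TGF-β1 replicate 1. Regions of at most 1 CpG numbered 3 of 85 at the 10 genes (3.53%) and 3122 of 169597 across the placed genome (1.84%).

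Of the 85 regions, 4 had their highest summit in a promoter, taken as 2 kb upstream to 500 bp downstream of any start of a protein-coding transcript, 65 in the gene body, 6 in the upstream flank and 10 in the downstream flank. Judged on the transcript with the longest coding sequence, 48 summits fell in introns, 6 in coding and 4 in untranslated parts of exons, and 27 outside that transcript. Regions with a peak in all 6 samples numbered 11 (12.9%), against 24.5% of all regions, and were made up of 8 in gene bodies, 3 in downstream flanks and 0 in promoters. Regions with a peak in 1 sample numbered 26 (30.6%), against 27.3% of all regions. The median GC content of the regions was 48.4%, against 47.9% over all regions, and the median ratio of observed to expected CpGs was 0.42 against 0.44. The 11 regions in all 6 samples had a median of 9 CpGs and a median pileup of 21.8 reads, against 13 CpGs and 26.5 reads for all regions in all 6 samples.

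**Figure D2:**
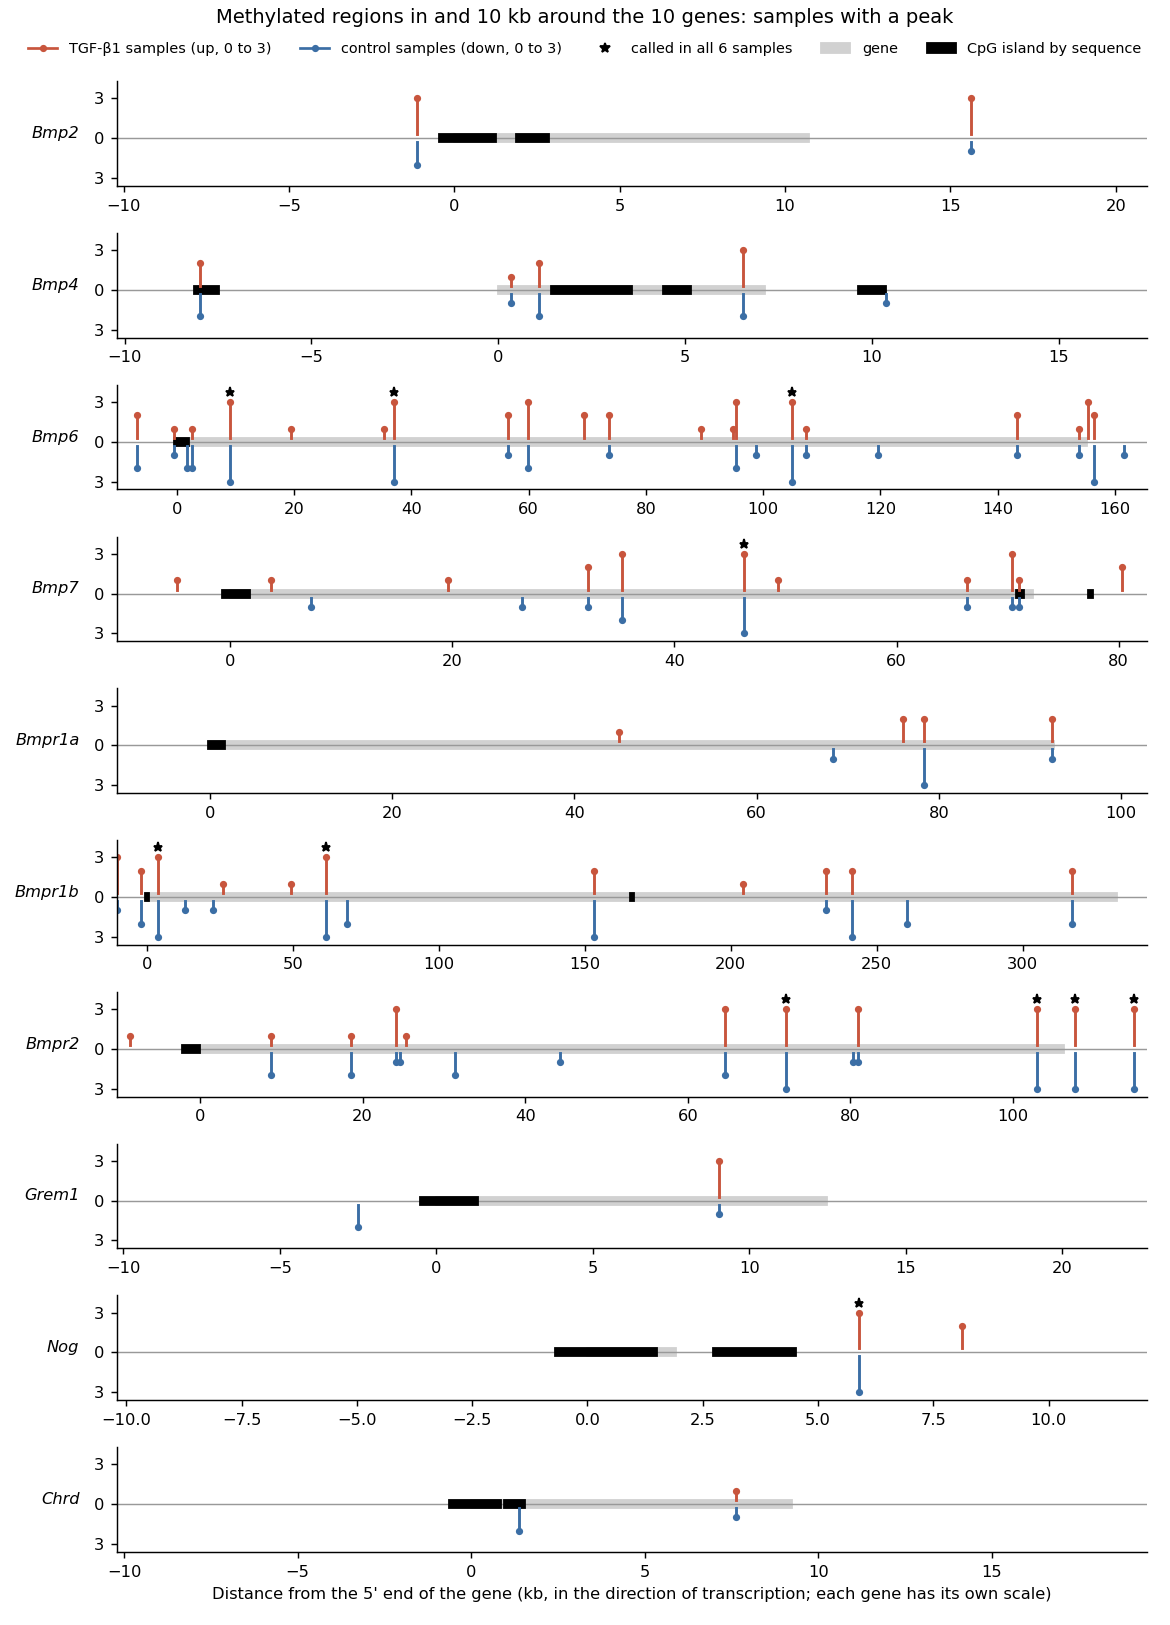
Each panel shows a gene (grey bar) with 10 kb on either side, against the distance from its 5′ end in kb in the direction of transcription, with CpG islands found from the sequence in black (the shortest drawn wider than to scale). Lines give the number of TGF-β1 samples (up, red) and control samples (down, blue) with a peak in each of the 85 regions, and stars mark the 11 regions called in all 6 samples, none of which lies in a promoter.

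The gene starts were mostly CpG islands. Within 500 bp of the 5′ end, 8 of the 10 genes had a GC content of at least 55% and a ratio of observed to expected CpGs of at least 0.65, a share of 34.9% among all protein-coding genes. The exceptions were Bmp4, with a ratio of 0.44, and Bmpr2, with a ratio of 0.64 and a GC content of 53.5%. The other ratios ran from 0.67 at Chrd to 1.08 at Bmp2, and the median of the 10 genes was 0.82 against 0.55 for all genes. When windows of 500 bp with the same minima were joined along the whole sequence, 19 islands were found at the 10 genes, of which 9 held the 5′ end of a gene, with Bmp4 as the exception. Of these 9, the island of Bmp6 was touched by 2 regions, and the other 8 were touched by no peak of any sample. The nearest region to those 8 islands was 362 bp away at Chrd, 428 bp at Bmp2, 1307 bp at Bmpr1b, 1676 bp at Bmp7, 1764 bp at Grem1, 4169 bp at Nog, 6178 bp at Bmpr2 and 12758 bp at Bmpr1a. Across the genome, a region lay over the 500 bp around the start at 9.02% of all genes, at 3.05% of those with such an island-like start and at 12.2% of the others. At the 10 genes the same held for 2 (20.0%), namely Bmp6, 1 of the 8 with an island-like start, and Bmp4, without one.

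**Figure D3:**
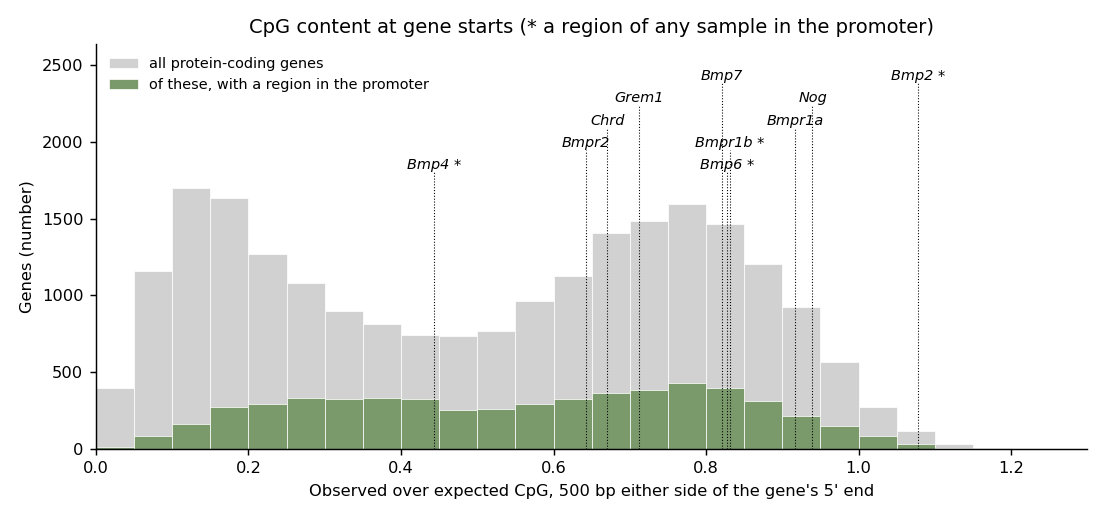
The grey histogram gives the number of protein-coding genes (vertical axis) by the ratio of observed to expected CpGs within 500 bp of the 5′ end (horizontal axis), and the green part those with a region in the promoter in any sample. Dotted lines mark the 10 genes, from 0.44 at Bmp4 to 1.08 at Bmp2, and asterisks the 4 with a promoter region.

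A promoter region was found at 4 of the 10 genes (Bmp2, Bmp4, Bmp6 and Bmpr1b), against 25.2% of all protein-coding genes, and at none of the 10 was it called in all 6 samples, against 6.75% of all genes. With a promoter of 1 kb either side of a start, promoter regions were found at 2 of the 10 genes, Bmp4 and Bmp6, against 20.2% of all protein-coding genes, and those of Bmp2 and Bmpr1b fell in the upstream flank. No promoter region of either kind was called at Bmp7, Bmpr1a, Bmpr2, Grem1, Nog or Chrd in any sample.

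Bmp2, a ligand known for inducing bone and cartilage, had few peaks, with 1, 1 and 1 in the controls and 2, 2 and 2 in the TGF-β1 samples. The groups did not overlap (p = 0.1 by a two-sided exact permutation test, whose smallest p with 3 samples against 3 this is), as was the case with higher counts in the TGF-β1 group at 4.08% of the genes with a peak and with lower counts at 0.345%. The 2 regions behind these counts were called in different control samples. The promoter region (chr2:133376591-133376996), whose summit lay 1146 bp upstream of the start and short of the island, had no peak in control replicate 1, pileups of 21 and 20 in control replicates 2 and 3, and pileups of 16, 22 and 24 in the TGF-β1 samples. The downstream region (chr2:133393286-133393700), 4885 bp past the gene end, had pileups of 16 in control replicate 1 and of 17, 16 and 27 in the TGF-β1 samples. Where both groups had a peak the pileups overlapped. Both regions were under 50% GC, at 44.3% and 47.7%.

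Bmp4, which acts with BMP2 through the same receptors, had 1, 3 and 4 peaks in the control and 3, 4 and 1 in the TGF-β1 samples (2.67 ± 1.53 in each group, SD, n = 3). All 5 of its regions had a GC content of at least 53.8%, and 4 of them had no peak in control replicate 1. The strongest lay over the coding part of exon 4 (chr14:47003617-47004413), which encodes most of the BMP4 protein, and held 25 CpGs in 797 bp, the most of the 85 regions. Its pileups were 28 and 37 in control replicates 2 and 3 and 38, 34 and 21 in the TGF-β1 samples. These groups overlapped, with TGF-β1 replicate 3 the lowest of the samples with a peak. Regions in intron 1 (chr14:47009087-47009485) and upstream (chr14:47018174-47018558) had peaks in the same samples as each other, namely control replicates 2 and 3 and TGF-β1 replicates 1 and 2. The samples without a peak there, control replicate 1 and TGF-β1 replicate 3, were those with few GC-rich peaks. The promoter region (chr14:47009847-47010406), over untranslated exon 1 at 60.7% GC, had a pileup of 12 in control replicate 3 and a pileup of 16 in TGF-β1 replicate 2. The remaining region, 3224 bp past the gene end and inside the annotated gene Gm15217, had a pileup of 17 in control replicate 1.

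Bmp6, a ligand known for control of iron balance through hepcidin, had the most regions, 24 in a window of 175 kb. Its peaks numbered 11, 12 and 8 in the controls and 11, 10 and 17 in the TGF-β1 samples (10.3 ± 2.08 against 12.7 ± 3.79, SD, n = 3; p = 0.6, two-sided exact permutation test). The difference of 2.33 peaks was below the spread of the TGF-β1 samples, among which replicate 3 stood highest, and was 0.167 without that sample and 1.17 without control replicate 3. The promoter region (chr13:38436326-38436733), at the upstream edge of the start island, had a pileup of 11 in control replicate 1 and a pileup of 19 in TGF-β1 replicate 3. A region at the other edge of the island, in intron 1 (chr13:38438599-38439042), had pileups of 12 and 15 in control replicates 2 and 3 and no peak in the TGF-β1 samples. The edges of the island were thus called in different samples, and no sample had a peak at both.

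The long first intron of Bmp6 held the 3 regions of this gene that were called in all 6 samples. The one with the highest mean pileup (chr13:38473782-38474193) had 24, 15 and 24 in the control and 28, 20 and 26 in the TGF-β1 samples, and its groups overlapped (log2 fold change 0.03, SE 0.22, limma adjusted p = 0.999). Another (chr13:38541664-38542097) had 14, 17 and 22 in the control and 23, 29 and 26 in the TGF-β1 samples. Here every TGF-β1 sample was above every control sample, although after centring of each sample on its median the log2 fold change of 0.35 (SE 0.22) was not significant (limma unadjusted p = 0.113, adjusted p = 0.999). The one nearest the start (chr13:38445472-38446221) had 20, 13 and 14 in the control and 18, 13 and 20 in the TGF-β1 samples (log2 fold change -0.10, SE 0.22).

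Just past the end of Bmp6 lay the only region of the 85 with a peak in all 3 TGF-β1 samples and no control sample, a pattern met by 0.948% of all regions. None of the 85 had a peak in all 3 control samples and no TGF-β1 sample, against 0.233% of all regions. The region (chr13:38592252-38592649) had pileups of 28, 27 and 26 in the TGF-β1 samples, and its summit lay 235 bp beyond the gene end. It also lies within the 3′ untranslated part of the last exon of Txndc5, a neighbouring gene on the opposite strand that encodes a protein disulphide isomerase of the endoplasmic reticulum. With 16 CpGs at 54.3% GC it was among the GC-rich regions. Its fold enrichment over the local background was 5.25, 5.20 and 4.70, so that at a minimum of 5 TGF-β1 replicate 3 lost its peak and no region kept the pattern. The lowest pileup called anywhere was 8 reads in each control sample, but calls depend on local background, so this sets no limit for the controls here. At the region described next, 20 reads in control replicate 1 gave a fold enrichment of 4.64. A region 1235 bp past the gene end, also in Txndc5 (chr13:38593262-38593650), was called in 5 samples, with 20, 29 and 33 in the controls and 26 and 30 in TGF-β1 replicates 1 and 3.

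Bmp7, the ligand most studied in the kidney, had 3, 3 and 5 peaks in the controls and 5, 7 and 7 in the TGF-β1 samples. The means of 3.67 ± 1.15 and 6.33 ± 1.15 (SD, n = 3) differed by 2.67 peaks, more than either SD, while the groups met at 5 peaks in control replicate 3 and TGF-β1 replicate 1 (p = 0.2, two-sided exact permutation test). Per 1000000 reads the means were 0.348 and 0.491 peaks. Among peaks with a fold enrichment of 5 or more they were 2.67 and 3.33 (p = 0.6, two-sided exact permutation test). Among peaks with a −log10 q of 5 or more they were 3.33 and 5.67, with every TGF-β1 sample higher (p = 0.1, two-sided exact permutation test, its smallest p). The share of all genes with this order was not counted at that threshold. Without the threshold, the order was met by 4.08% of the genes with a peak. The region in all 6 samples lay in intron 2 (chr2:172719328-172719833), with 21, 19 and 17 in the control and 16, 15 and 28 in the TGF-β1 samples (log2 fold change -0.23, SE 0.23). TGF-β1 replicates 1 and 2 were the lowest and replicate 3 the highest of the 6. A second region of intron 2 (chr2:172730322-172730727) had 17 and 19 in control replicates 2 and 3 and 26, 29 and 26 in the TGF-β1 samples. Its lowest TGF-β1 sample was above both control samples with a peak, and control replicate 1 had none, at 53.7% GC. In the last exon, untranslated at that point, a region (chr2:172695283-172695804) had 15 in control replicate 2 and 16, 16 and 25 in the TGF-β1 samples. A downstream region (chr2:172685343-172685651) had 24 and 23 in TGF-β1 replicates 1 and 2 alone.

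Bmpr1a, the type I receptor also called ALK3, had 1, 2 and 2 peaks in the control and 4, 1 and 2 in the TGF-β1 samples, and no region within 13013 bp of its 5′ end, the longest such distance among the 10 genes. The nearest region lay upstream, outside its window. Its most frequent region, in intron 9 (chr14:35237885-35238355), had 19, 12 and 15 in the control samples, 18 and 18 in TGF-β1 replicates 1 and 2, and no peak in TGF-β1 replicate 3. The other 4 regions were called in 1 to 3 samples, at pileups of 14 to 17. Their GC content was 44.0% or less.

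Bmpr1b, the type I receptor also called ALK6 and known for its part in limb and ovary, spans 332 kb and had 15 regions, or 0.426 per 10 kb of its window, the fewest per length of the 10 genes. Its peaks numbered 7, 6 and 11 in the control and 8, 7 and 6 in the TGF-β1 samples (8 ± 2.65 against 7 ± 1, SD, n = 3; p = 0.9, two-sided exact permutation test). These numbers overlapped. Per 1000000 reads the control samples, at 0.678, 0.638 and 0.957 peaks, were all above the TGF-β1 samples, at 0.628, 0.554 and 0.451 (p = 0.1, two-sided exact permutation test), an order met by 13.3% of the genes with a peak. Both regions called in all 6 samples lay in the first intron of the longer transcripts. The stronger one (chr3:141828441-141828983), 3711 bp from the 5′ end, had 20, 31 and 26 in the control and 32, 20 and 37 in the TGF-β1 samples (log2 fold change -0.04, SE 0.22). The other (chr3:141770639-141771042) had 20, 21 and 19 in the control and 22, 26 and 22 in the TGF-β1 samples, with every TGF-β1 sample higher before and a log2 fold change of -0.0033 (SE 0.22) after centring on the sample medians. The promoter region (chr3:141834038-141834400), 1869 bp upstream of the 5′ end, had 20 and 16 in control replicates 1 and 3 and 22 and 18 in TGF-β1 replicates 1 and 2. At 40.2% GC it lay outside the start island. The region farthest upstream (chr3:141842202-141842599) was called in control replicate 3 and all 3 TGF-β1 samples, and its highest summit lay 65 bp outside the window.

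Bmpr2, the type II receptor, whose loss causes hereditary pulmonary arterial hypertension, had the most regions called in all 6 samples, 4 of 15. Its number of peaks was nearly the same in every sample, with 9, 8 and 8 in the control and 8, 9 and 8 in the TGF-β1 samples. When only peaks with a fold enrichment of 5 or more were kept, the numbers were 9, 8 and 8 against 7, 7 and 7 (p = 0.1, two-sided exact permutation test), an order met by 0.811% of the genes with such a peak. All 4 shared regions lay in the 3′ part of its window, from 72.1 kb to 115 kb downstream of the start. The region in intron 3 (chr1:59893322-59893855) had the highest mean pileup among those called in all 6 samples at the 10 genes, with 28, 28 and 20 in the control and 29, 34 and 50 in the TGF-β1 samples. Whether it lies over an interspersed repeat was not tested. Every TGF-β1 sample was above every control sample, by 1 read for replicate 1 and most for replicate 3 (log2 fold change 0.33, SE 0.22, limma unadjusted p = 0.145, adjusted p = 0.999). This fold change was 0.0896 without control replicate 3 and 0.448 without control replicate 1 (limma unadjusted p = 0.0488, adjusted p = 0.832, for the latter). A region in the coding part of exon 12 (chr1:59924164-59924614), the exon that encodes the long cytoplasmic tail of the receptor, had 28, 30 and 20 in the control and 26, 27 and 24 in the TGF-β1 samples. The regions 1361 bp and 8637 bp past the gene end had 18, 19 and 22 against 19, 21 and 24, and 33, 24 and 27 against 30, 22 and 35. Groups overlapped at these last 3 regions, whose log2 fold changes were -0.22, -0.11 and -0.19 (SE 0.22, 0.21 and 0.21). A further region in intron 3 (chr1:59885805-59886191) had no peak in control replicate 1, 13 and 26 in the other controls and 22, 20 and 29 in the TGF-β1 samples.

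**Figure D4:**
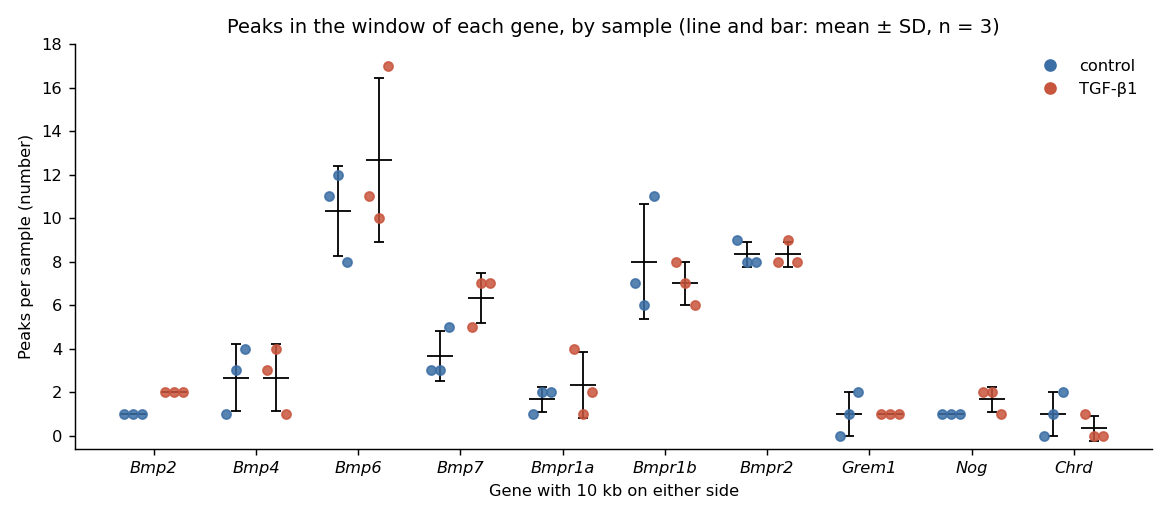
Points give the number of peaks of each sample (vertical axis) in the window of each gene, with control samples in blue and TGF-β1 samples in red, and black lines the mean ± SD of 3 samples. The groups of Bmp2 do not overlap, at 1 against 2 peaks, those of Bmp7 meet at 5 peaks, and those of the other genes overlap.

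Among the antagonists, Grem1, which encodes gremlin 1, had 0, 1 and 2 peaks in the control and 1, 1 and 1 in the TGF-β1 samples. The region over the coding part of exon 2 (chr2:113589663-113590017), the exon that carries the whole coding sequence, had 19 in control replicate 3 and 17, 17 and 18 in the TGF-β1 samples. Its pileups were thus close to each other where called, and at 53.0% GC the region had no peak in control replicate 1 or 2. The repeat-bearing region described above, 2503 bp upstream, was called in control replicates 2 and 3 alone.

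Nog, which encodes noggin and has a single exon, had no region in the gene or its promoter. Its 1, 1 and 1 peaks in the control and 2, 2 and 1 in the TGF-β1 samples all lay past the gene end. The region 3978 bp past the end (chr11:89157700-89158200) was called in all 6 samples, with 20, 18 and 19 in the control and 14, 20 and 18 in the TGF-β1 samples. Its log2 fold change of -0.37 (SE 0.22) was the lowest of the 11 such regions and had the smallest p (limma unadjusted p = 0.0975, adjusted p = 0.999). The raw groups overlapped, while per 1000000 reads the control samples, at 1.94, 1.91 and 1.65, were all above the TGF-β1 samples, at 1.10, 1.58 and 1.35. Such an order per 1000000 reads was met by 10.4% of all regions in all 6 samples, and the opposite order by 1.97%. The region 6201 bp past the end (chr11:89155581-89155911) had 15 and 17 in TGF-β1 replicates 1 and 2 alone.

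Chrd, which encodes chordin, had 0, 1 and 2 peaks in the control and 1, 0 and 0 in the TGF-β1 samples. The region with its summit in exon 5 (chr16:20734425-20734815) had pileups of 19 and 19 in control replicates 2 and 3 and no peak in any TGF-β1 sample. At 58.1% GC, with 20 CpGs, it had no peak in control replicate 1 either, and it overlaps the first exon of a transcript of Thpo, the thrombopoietin gene on the opposite strand. It was among the 6 regions of the 85 (7.06%) called in 2 control samples and no TGF-β1 sample, against 1.93% of all regions. The opposite pattern, 2 TGF-β1 samples and no control sample, was met by 4 of the 85 (4.71%), against 3.86% of all regions.

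**Figure D5:**
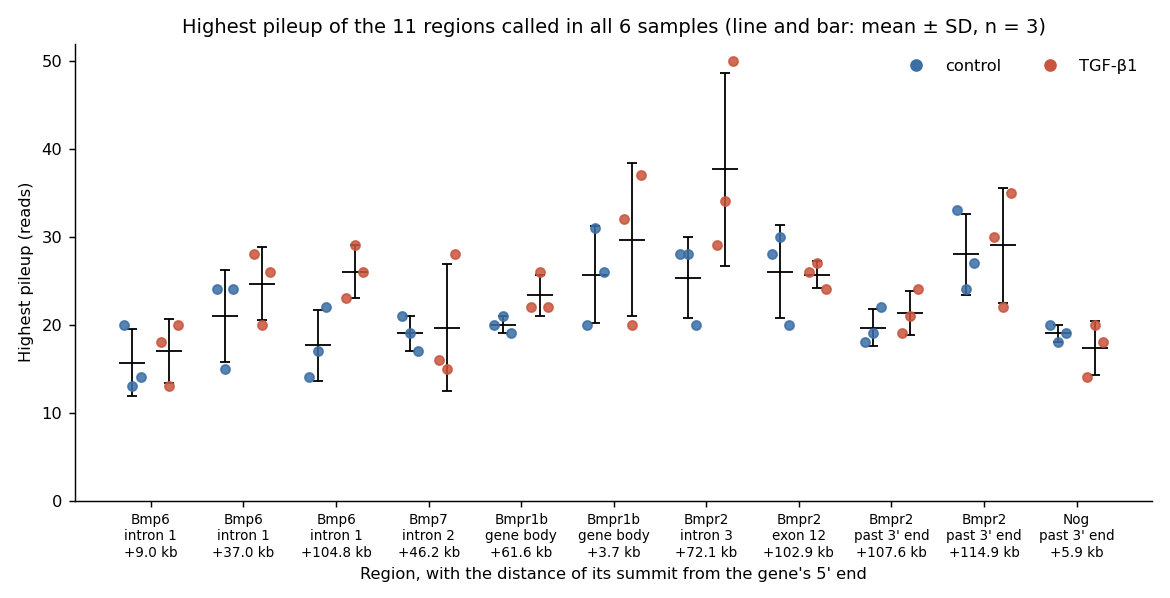
Points give the highest pileup (vertical axis, reads, not scaled to depth) of each sample in the 11 regions called in all 6 samples, named by gene, element and distance of the summit from the 5′ end, with control samples in blue and TGF-β1 samples in red and black lines for the mean ± SD of 3 samples. The groups do not overlap at 3 regions, of Bmp6 at 105 kb, Bmpr1b at 61.6 kb and Bmpr2 at 72.1 kb, all higher in the deeper TGF-β1 samples.

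Over the 10 genes, the windows held 34, 38 and 44 peaks in the controls and 45, 43 and 45 in the TGF-β1 samples. The means were 38.7 ± 5.03 and 44.3 ± 1.15 peaks (SD, n = 3), and the groups overlapped. All peaks of the genome numbered 81473, 90337 and 100449 in the controls and 101629, 100379 and 105520 in the TGF-β1 samples. Per 1000 peaks of the sample, the 10 genes held 0.417, 0.421 and 0.438 in the controls and 0.443, 0.428 and 0.426 in the TGF-β1 samples. Per 1000000 reads, all peaks numbered 7895, 9603 and 8739 against 7972, 7945 and 7939. Those at the 10 genes were fewer in the TGF-β1 group per 1000000 reads, at 3.72 ± 0.384 in the control and 3.44 ± 0.0786 in the TGF-β1 group. By role, these values were 1.71 ± 0.267 against 1.83 ± 0.192 at the ligands, 0.919 ± 0.188 against 0.725 ± 0.188 at the type I receptors, 0.806 ± 0.0960 against 0.647 ± 0.0578 at Bmpr2 and 0.284 ± 0.172 against 0.234 ± 0.0817 at the antagonists (SD, n = 3). A region was called in more TGF-β1 than control samples 37 times and in more control than TGF-β1 samples 25 times (43.5% and 29.4%, against 37.7% and 22.5% of all regions), and 23 times in as many of each.

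In the 11 regions called in all 6 samples, pileup differed between the groups by less than the test could call. Centred on the sample medians, the log2 fold changes ran from -0.37 at Nog to 0.35 at Bmp6, with a median of -0.10 beside -0.0047 over all 41744 such regions. Of the 11, 3 were above 0 and 8 below, against 20521 above and 21223 below among all such regions. For the settings that follow, directions were not counted over the genome. Scaled by reads, the median was -0.1925 beside -0.0957 over all such regions, with 2 above 0 and 9 below. Fitted on fold enrichment, the median was 0.0002 beside -0.0052, with 6 above 0 and 5 below. At the 42 regions with a peak in 3 or more samples, a sample without a peak was given the lowest pileup. There the median was 0.11 beside 0.0241 over the genome, with 24 above and 18 below. None of the 11 passed an adjusted p below 0.01 with an absolute log2 fold change above 2, and neither did any of the 41744 regions (0.0%, limma). Over these 41744 regions the log2 fold changes ran from -0.87 to 1.03, so none reached an absolute value of 2. Regions not called in all 6 samples did not enter this fit. None of the 11 had an unadjusted p below 0.05, against 4.18% of the 41744 regions (limma). Raw pileups were higher in every TGF-β1 than in every control sample at 3 of the 11 and lower at none, against 14.6% and 0.309% of all regions in all 6 samples, and per 1000000 reads none of the 3 kept this order. The SE was 0.21 to 0.23 on the log2 scale, and changes of the size seen were not distinguishable from 0 with 3 samples per group.

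A further 43 genes of the pathway were counted in the same way, all of which matched the annotation. Of these, 41 had a region, and 84 of their 268 regions (31.3%) were called in all 6 samples, against 24.5% of all regions. By role, the shares were 11 of 50 regions at 11 other ligands, 18 of 62 at 8 other receptors and co-receptors, 29 of 76 at 14 other antagonists and modulators, and 26 of 80 at 10 signal transducers and targets. Of the 43, 11 had a promoter region (25.6%), against 25.2% of all protein-coding genes. Those with one in all 6 samples included Bmp1, a procollagen protease named for its copurification with BMPs, Bmp10, a heart ligand, Acvrl1, the endothelial type I receptor ALK1, Rgma, a BMP co-receptor, and Fstl1, an antagonist. At Acvrl1 the promoter region had 31, 46 and 54 in the control and 51, 45 and 55 in the TGF-β1 samples (log2 fold change 0.02, SE 0.18), and the groups overlapped.

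At the 43 genes, 8 of the 84 regions in all 6 samples had an unadjusted p below 0.05, 3 higher and 5 lower in the TGF-β1 group, all at an adjusted p of 0.999 (limma). This is 9.52%, against 4.18% of all regions in all 6 samples. The region with the smallest p lay 8034 bp upstream of Id4, a target of BMP signalling that encodes an inhibitor of helix-loop-helix factors, with pileups of 15, 12 and 17 in the control and 31, 28 and 25 in the TGF-β1 samples (log2 fold change 0.72, SE 0.22, unadjusted p = 0.00216). Every TGF-β1 sample was at least 8 reads above every control sample. The others with higher values lay in Smad1 and Smad4, and those with lower values upstream of Bmp8a and Smad7, in Twsg1 and, at 2 places, in Smad1. Upstream of Smad7, which encodes an inhibitory Smad, the pileups were 27, 30 and 31 in the control and 24, 23 and 21 in the TGF-β1 samples (log2 fold change -0.59, SE 0.21, unadjusted p = 0.00674). Smad1, a receptor-regulated Smad of the BMP branch, had regions in both directions, with log2 fold changes of 0.33, -0.47 and -0.37. Regions called in all 3 TGF-β1 samples and no control sample lay past the ends of Gdf7 and Smad6, and regions with the reverse pattern past the end of Chrdl2 and in Smad4. These are 2 in each direction of 268 regions (0.746%), against 0.948% and 0.233% of all regions. None of the 41 of these genes with a region had peak counts that did not overlap between the groups. Among all genes with a peak, counts were higher in every TGF-β1 sample at 4.08% and lower at 0.345%.

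For the cell types that the cultures could hold, promoter regions were counted at marker genes. A promoter region in any sample was present at 3 of 6 mesangial, 2 of 4 podocyte, 3 of 4 endothelial, 0 of 4 epithelial and tubule and 2 of 4 leukocyte markers, against 25.2% of all protein-coding genes. Peak counts were higher in every TGF-β1 than in every control sample at a podocyte marker, Podxl, which encodes podocalyxin (5, 4 and 6 against 9, 9 and 9), and at an endothelial marker, Pecam1, which encodes CD31 (5, 8 and 8 against 13, 9 and 11). These were 2 of the 21 markers with a peak (9.52%), against 4.08% of all genes with a peak, and 0 of the 21 had lower counts in every TGF-β1 sample, against 0.345%. Regions called in all 3 TGF-β1 samples and no control sample numbered 3 of 37 at the podocyte markers, at Synpo (2 regions) and Podxl, 1 of 36 at the mesangial markers, at Des, 0 of 41 at the endothelial, 0 of 29 at the epithelial and tubule and 0 of 15 at the leukocyte markers, against 0.948% of all regions. These peaks give no measure of which cells were present, and the part of other cells in the results was not tested.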

How the data were processed

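MeDIP-seq peak lists of 3 control and 3 TGF-β1 samples were analysed, and groups and replicate numbers were taken from the sample labels. The authors aligned clean reads to mm9 with BWA, counted reads of the same start once and called peaks in every sample on its own with MACS2 (2.1.0.20150731 in the file headers, q cutoff 0.01, no input library). The deposited pileup is a signal value, a number of extended reads at the summit with no scaling for depth. The deposited fold enrichment is a ratio of pileup to local background, and the deposited q-values, on a −log10 scale, were used for filtering.

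Positions were counted from 1. Peaks sharing at least 1 bp were joined into regions. Gene models were GENCODE vM1 and sequence was NCBIM37, the same assembly as mm9, without marked repeats. Exact tandem runs were found from the sequence, while regions over interspersed repeats could not be marked. For regions in all 6 samples, log2 of the highest pileup was centred on each sample's median and tested with limma 3.58.1 (R 4.3.3, trended eBayes), with Benjamini-Hochberg adjustment over all 41744 regions. Peak numbers of single genes were tested by exact two-sided permutation over 20 assignments. The scripts were tested on simulated data, and joining was checked against bedtools 2.31.1. The paper's test on read counts was not repeated, since reads were not used here.

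Depth was 9407103 to 13291419 reads per sample, and uncalled places have no value. The 10 genes, the 43 further pathway genes and the marker lists were chosen with earlier results of these data known. Regions were named by rule: each promoter region, each gene's highest region among those in most samples, and each region called in all 3 samples of 1 group and none of the other. Other regions of the 10 genes that the text describes were picked after their values were seen. Alternatives were stricter peaks, smaller flanks, another promoter, wider joining, other scalings, a replicate block and leaving out samples.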

Additional observations from a re-analysis of the deposited data

How the results depend on the processing

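The difference of group means in peaks at the 10 genes, 5.67, was 3.33 to 8.33 when each sample was left out in turn. It fell to 2 when only peaks with a fold enrichment of 5 or more were kept, and reversed to -0.281 per 1000000 reads. Per 1000 peaks of the sample it was 0.0072, with means of 0.425 in the control and 0.433 in the TGF-β1 group. The cause was not tested. Single-gene differences reversed at Bmp6 per 1000000 reads (-0.0347) and when samples were left out at Bmpr1a (-0.167 to 1.33, below 0 without TGF-β1 replicate 1) and Bmpr1b (-2 to 0.5, above 0 without control replicate 3). Genes higher in every TGF-β1 sample, 1 as reported, numbered 0 with a flank of 2 kb or none, which leaves out the downstream region of Bmp2. They numbered 2 with a −log10 q of at least 5 (Bmp2 and Bmp7) and 1 to 2 on leaving out a sample. Bmp7 was added without control replicate 3 or TGF-β1 replicate 1, and Nog without TGF-β1 replicate 3. The share of all genes was not counted at these settings, and such an order is met more easily with fewer samples. Genes lower in every TGF-β1 sample, 0 as reported, numbered 1 per 1000000 reads (Bmpr1b) and 1 at a fold enrichment of 5 or more (Bmpr2). Regions called in every TGF-β1 and no control sample, 1 as reported, numbered 0 at a fold enrichment of 5 or more or with no flank, which leaves out the Bmp6 region, and 1 to 4 on leaving out a sample, at 3, 2 and 4 without control replicates 1, 2 and 3 and at 3 without TGF-β1 replicate 2 or 3. The reverse pattern, 0 as reported, ranged from 0 to 4, at 4 without control replicate 1 and 1 without control replicate 2 or 3. At these settings neither pattern was counted over all regions, and both are met more easily with fewer samples. With no flank, the promoter regions numbered 1 by construction, and with a promoter of 1 kb either side 3, at 2 genes. Without control replicate 1 and TGF-β1 replicate 3 together, chosen after seeing the data, 20 regions of 73 were called in every sample (27.4%, against 35.9% of all regions), 6 in every TGF-β1 and no control sample (8.22%, against 3.63%) and 5 in the reverse pattern (6.85%, against 2.26%), and 2 genes (Bmp2 and Nog) were higher in every TGF-β1 sample. A call in every sample is met more easily with fewer samples.

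In limma, fold enrichment in place of pileup gave 1 of the regions in all 6 samples with an adjusted p below 0.05, against 0, and none at the 10 genes. Regions of the 10 genes with an unadjusted p below 0.05, 0 as reported, numbered 1 when scaled by reads, at Nog (limma unadjusted p = 0.0387). They numbered 1 among regions called in at least 3 samples and 0 to 1 on leaving out a sample (1 without control replicate 1 or 3 or TGF-β1 replicate 2). Of 41744 regions over the genome, 2599 had such a p when scaled by reads, against 1744 as reported. The number was 2477 without control replicate 1 and 2270 without control replicate 3. None is given here for the setting without TGF-β1 replicate 2, so the region found there has no share to be set against. The setting of at least 3 samples gave 3997 of 98681 regions over the genome and tested 42 at the 10 genes. The median over the 11 regions, -0.10 as reported, ran from -0.15 to -0.02 on leaving out a sample, where 3 to 5 regions were above 0. Fold changes near 0 changed sign. By scaling to reads, the Bmp6 region at 37.0 kb went to -0.0624. By fold enrichment, the Bmpr1b regions at 61.6 kb and 3.71 kb went to 0.0204 and 0.0131 and the Bmpr2 region at 108 kb to 0.0002. Without control replicate 1 and TGF-β1 replicate 3, the Bmp6 region at 9.03 kb went to 0.0394 and the Bmpr1b region at 61.6 kb to 0.118. Leaving out a sample gave -0.247 to 0.126 and -0.159 to 0.180 at the Bmp6 regions at 9.03 kb and 37.0 kb, and -0.118 to 0.0788 and -0.178 to 0.189 at the Bmpr1b regions at 61.6 kb and 3.71 kb. None of the 11 regions passed an adjusted p below 0.05 in any setting, and the smallest was 0.789, scaled by reads.

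The pileups of same-numbered samples did not deviate together (correlations of -0.0464, 0.0432 and -0.130). The labels do not say whether same-numbered samples were handled together, and these correlations cannot decide it. With a replicate block, the difference in peaks was 5.67. Of the regions in all 6 samples, 1533 over the genome and 0 at the 10 genes had an unadjusted p below 0.05 (limma), and no call changed. Depth limits these results, because a sample without a call has no value.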

Other observations

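Libraries shared fewer calls at the 10 genes than over the genome. For a pair of samples, the regions with a peak in both made up 32.2% to 57.1% of those with a peak in either at the 10 genes, and 48.4% to 59.1% over all regions. The lowest share at the 10 genes was that of control replicates 1 and 3 (19 of 59 regions) and the highest that of TGF-β1 replicates 1 and 2 (32 of 56). The pairs with control replicate 1 ran from 32.2% to 40.4%, and its highest share was with TGF-β1 replicate 3.

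Regions were unevenly spread. Per 10 kb of window, their number ran from 0.426 at Bmpr1b and 0.444 at Bmpr1a to 1.41 at Bmp7 and 1.84 at Bmp4. It was 1.19 at Bmpr2 and 1.37 at Bmp6. Of the 19 CpG islands found from the sequence, 10 lay away from a gene's 5′ end, and 4 of these were touched by a region, at Bmp4 (2 islands), Bmp7 and Chrd.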
